A study of Mus musculus with 11 samples.

Results

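The 10 genes described here drive or brake the cell division cycle: the D-type cyclins Ccnd1, Ccnd2 and Ccnd3, the E-type cyclins Ccne1 and Ccne2, the mitotic cyclins Ccna2 and Ccnb2, the kinase Cdk1 and the CDK inhibitors Cdkn1b and Cdkn2c. They were chosen by name, with earlier results of these data known. Each was read from the probe set that carried its symbol alone and, where a gene had several, had the highest mean over the arrays. All 10 had such a probe set, among 19938 genes in the series. The livers came from male C57/BL6 mice aged 8 to 9 weeks on chow, and whole-liver RNA was hybridised to mouse whole-transcript arrays. There were 3 wild-type arrays (WT) and 3 arrays of NemoΔhepa livers, in which the loxP-flanked Nemo gene (Ikbkg) is deleted in hepatocytes (Nemo KO). A further 2 arrays came from NemoΔhepa/TRAIL-/- livers (TRAIL dKO) and 3 from NemoΔhepa/TNFR1-/- livers (TNFR1 dKO). All 3 mutant genotypes carry the hepatocyte deletion of Nemo. In the double knockouts the second gene is missing in every cell of the animal, so that its loss is not limited to hepatocytes, and no genotype lacks TRAIL or TNFR1 alone. The labels do not name the promoter that drives the recombinase.

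Cyclins are the regulatory subunits that switch on cyclin-dependent kinases (CDKs) in turn as a cell divides. D-type cyclins pair with Cdk4 and Cdk6 and start the phosphorylation of the retinoblastoma protein, E-type cyclins pair with Cdk2 at the entry into DNA synthesis, and cyclin A2 and cyclin B2 act with Cdk2 and Cdk1 from DNA synthesis to mitosis. Cdkn1b (p27) holds back CDK2 complexes, and Cdkn2c (p18) is an INK4 protein that binds Cdk4 and Cdk6. Most hepatocytes of an adult liver rest outside the cycle and enter it again after injury or loss of tissue. Nemo is the regulatory subunit of the kinase complex that activates NF-κB, TRAIL is a death ligand, and TNFR1 is a receptor for tumour necrosis factor.

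Promoter sequences are shown for Ccnb2 and Cdk1, which had among the largest rises after the loss of Nemo, and for the inhibitor that rose, Cdkn2c, beside the one that did not pass the test, Cdkn1b. Genes transcribed late in the cycle often carry a CCAAT box, a cell cycle homology region (CHR, TTTGAA) or an E2F site near the start of transcription. RefSeq promoter windows of build GRCm38.p6 were found for 6 of the 10 genes, namely Ccnd3, Ccne1, Ccnb2, Cdk1, Cdkn1b and Cdkn2c. Each window runs from 250 bases before the start site to base 50 from it, and the sequences below run to base 20, in the direction of transcription. They lie at chr9:70421535-70421804 on the minus strand for Ccnb2, chr10:69352893-69353162 on the minus strand for Cdk1, chr6:134920151-134920420 on the plus strand for Cdkn1b and chr4:109666737-109667006 on the minus strand for the first of the windows of Cdkn2c. Capitals mark matches to CCAAT, to TTTGAA and to an E2F form, searched on both strands, so that ATTGG is a CCAAT box on the other strand.
Ccnb2: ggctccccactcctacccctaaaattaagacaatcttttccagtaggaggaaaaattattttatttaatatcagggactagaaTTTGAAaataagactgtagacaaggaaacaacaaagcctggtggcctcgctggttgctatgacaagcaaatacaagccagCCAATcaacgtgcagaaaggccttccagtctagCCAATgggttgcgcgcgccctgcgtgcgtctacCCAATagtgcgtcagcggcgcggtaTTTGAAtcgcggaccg
Cdk1: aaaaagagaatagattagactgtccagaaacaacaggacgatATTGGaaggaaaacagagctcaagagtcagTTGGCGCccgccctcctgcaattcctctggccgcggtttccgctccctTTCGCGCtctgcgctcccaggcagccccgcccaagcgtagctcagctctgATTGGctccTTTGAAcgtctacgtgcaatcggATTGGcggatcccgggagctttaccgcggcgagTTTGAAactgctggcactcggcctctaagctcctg
Cdkn1b: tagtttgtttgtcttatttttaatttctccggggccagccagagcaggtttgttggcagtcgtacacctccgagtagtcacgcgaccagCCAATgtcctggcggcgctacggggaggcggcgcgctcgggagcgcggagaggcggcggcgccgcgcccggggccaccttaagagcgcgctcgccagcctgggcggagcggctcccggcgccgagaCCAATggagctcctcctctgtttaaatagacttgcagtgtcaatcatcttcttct
Cdkn2c: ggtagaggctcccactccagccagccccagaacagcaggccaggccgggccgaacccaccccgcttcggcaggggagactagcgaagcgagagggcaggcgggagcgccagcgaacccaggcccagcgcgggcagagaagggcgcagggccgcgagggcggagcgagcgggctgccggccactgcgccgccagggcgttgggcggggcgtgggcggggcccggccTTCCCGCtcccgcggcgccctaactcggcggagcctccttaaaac

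In the Ccnb2 window, 3 CCAAT boxes began at bases -87, -54 and -21, each 33 bases from the next, and TTTGAA began at bases -167 and 5. The Cdk1 window also held 3 CCAAT boxes, at bases -208, -80 and -48, and TTTGAA at bases -71 and -15. It held 2 E2F forms besides, TTGGCGC at base -178 and TTCGCGC at base -130. In Cdkn1b, 3 CCAAT boxes began at bases -161, -35 and 46, the last of them beyond the stretch shown and on the other strand, with neither TTTGAA nor an E2F form. The first Cdkn2c window held the E2F form TTCCCGC at base -25, and its second window held 1 CCAAT box. Ccne1 and the first Ccnd3 window had no match, and the second Ccnd3 window held 1 CCAAT box. Among all 32851 windows, 37.4% held CCAAT, 17.9% held TTTGAA and 9.57% held an E2F form, here TTCCCGC or TTCGCGC or TTGCCGC or TTGGCGC. A match describes letters only, and these arrays carry no reading of the factors that may bind there.

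Over the 11 arrays the median log2 value lay between 6.26 and 6.32, and the correlation between arrays over all probe sets was 0.979 to 0.994. Ikbkg ranged from 8.60 to 8.73 in WT, from 8.34 to 8.56 in Nemo KO, from 8.22 to 8.28 in TRAIL dKO and from 8.12 to 8.31 in TNFR1 dKO. The labels do not say which exons were deleted, and a probe set outside them checks nothing; Tnfsf10 (TRAIL) and Tnfrsf1a (TNFR1) were also still measured in their own knockouts, at 6.11 to 6.23 and at 9.95 to 10.19. WT replicate 3 stood apart, with a mean of 10.8 over 9 measured pancreatic acinar markers against 5.53 to 5.68 in the other WT arrays and 5.26 to 5.51 in the Nemo-deficient arrays. WT and Nemo KO arrays have one code in their names and each double knockout another, and array numbers run in order of genotype. What the code marks is not given, and its effect cannot be told apart from that of the added knockout. The labels do not say whether each array is 1 animal, so that the p-values cover the spread between samples, which may be technical.

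Against WT, 6 of the 10 genes rose in each Nemo-deficient genotype and none fell: Ccnd1, Ccne1, Ccna2, Ccnb2, Cdk1 and Cdkn2c. The tests are limma's moderated tests, with p-values adjusted by the Benjamini-Hochberg method over all 35556 probe sets and a call at an adjusted p below 0.05. Over all probe sets, 6.08% were called higher in Nemo KO, 4.91% in TRAIL dKO and 5.83% in TNFR1 dKO. The median log2 difference of the 10 genes was 0.94, 0.94 and 1.01 in that order, and that of all probe sets was -0.05, -0.05 and -0.04. The genes were chosen with earlier results of these data known, so their excess over all probe sets is not an independent result. These comparisons share the same 3 WT arrays. In whole-liver RNA, more cells of a kind and more RNA per cell cannot be told apart.

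**Figure D1:**
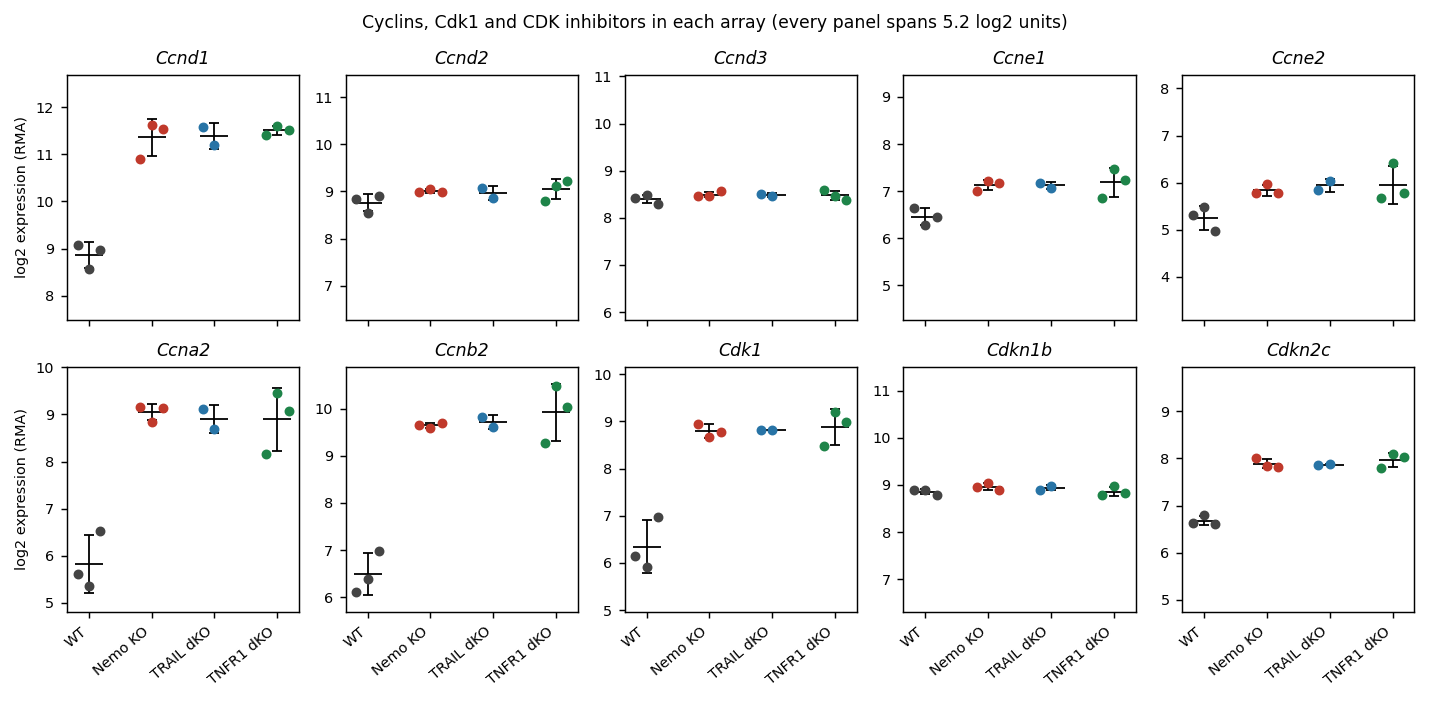
Log2 expression (RMA, vertical axis) of each of the 10 genes in every array, grouped by genotype on the horizontal axis, with a point for each array, a line at the genotype mean and whiskers of 1 SD. Each panel spans the same number of log2 units. For Ccna2 the WT arrays lie between 5.36 and 6.52 and the Nemo-deficient arrays between 8.16 and 9.46, while for Ccnd3 all arrays lie between 8.29 and 8.58.

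Among the D-type cyclins, only Ccnd1 was called. Ccnd1 (probe set 10569646), which couples growth signals to Cdk4 and Cdk6, measured 9.07, 8.56 and 8.96 in the WT arrays. It measured 10.91, 11.62 and 11.54 in Nemo KO, 11.58 and 11.19 in TRAIL dKO and 11.42, 11.59 and 11.51 in TNFR1 dKO. Every Nemo-deficient array lay above every WT array, and the TNFR1 dKO values were the closest together (SD 0.09, against 0.39 in Nemo KO). Ccnd1 rose in Nemo KO by 2.49 ± 0.20 log2 units (SE, 95% interval 2.04 to 2.94, limma adjusted p = 0.000338), which is 5.62-fold. In TRAIL dKO it rose 5.73-fold (2.52 ± 0.23 log2 units, limma adjusted p = 0.000677) and in TNFR1 dKO 6.24-fold (2.64 ± 0.20, limma adjusted p = 0.00021).

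Ccnd2 (probe set 10548105), a second D-type cyclin, measured 8.85, 8.55 and 8.90 in WT and 8.98, 9.05 and 8.98 in Nemo KO. It measured 9.07 and 8.86 in TRAIL dKO and 8.80, 9.12 and 9.21 in TNFR1 dKO. The 3 Nemo KO values lay above all WT values by a narrow margin, and both double knockouts overlapped WT. The difference from WT was 0.24 ± 0.13 in Nemo KO (SE, 95% interval -0.04 to 0.52, limma adjusted p = 0.27), 0.20 ± 0.14 in TRAIL dKO (adjusted p = 0.46) and 0.28 ± 0.13 in TNFR1 dKO (adjusted p = 0.219). Ccnd3 (probe set 10445688), the remaining D-type cyclin, measured 8.42, 8.47 and 8.29 in WT and between 8.38 and 8.58 in the Nemo-deficient arrays. Its groups overlapped throughout, with differences from WT of 0.09 ± 0.08 log2 units in Nemo KO (SE, 95% interval -0.08 to 0.26, limma adjusted p = 0.475), 0.09 ± 0.08 in TRAIL dKO (adjusted p = 0.617) and 0.08 ± 0.08 in TNFR1 dKO (adjusted p = 0.599). The upper bounds of these intervals for Ccnd2 and Ccnd3, 0.56 log2 units at most, lie below the lower bounds for Ccnd1, 2.01 at least.

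The E-type cyclins moved by less than Ccnd1. Ccne1 (probe set 10562563), a partner of Cdk2 at the start of DNA synthesis, measured 6.63, 6.28 and 6.45 in WT and 7.01, 7.21 and 7.18 in Nemo KO. It measured 7.18 and 7.08 in TRAIL dKO and 6.86, 7.47 and 7.24 in TNFR1 dKO. All Nemo-deficient arrays lay above all WT arrays, with TNFR1 dKO replicate 1 the nearest to them. Ccne1 rose 1.60-fold in Nemo KO (0.68 ± 0.15 log2 units, SE, 95% interval 0.34 to 1.01, limma adjusted p = 0.0207), 1.59-fold in TRAIL dKO (0.67 ± 0.17, adjusted p = 0.0394) and 1.66-fold in TNFR1 dKO (0.73 ± 0.15, adjusted p = 0.0148). Whichever array was left out, the difference stayed at 0.59 to 0.76 in Nemo KO, 0.58 to 0.76 in TRAIL dKO and 0.59 to 0.90 in TNFR1 dKO. The call did not hold in every such fit. In Nemo KO it was lost without WT replicate 2 (limma adjusted p = 0.0719), WT replicate 3 (0.0534), Nemo KO replicate 2 (0.0759) or Nemo KO replicate 3 (0.075). In TNFR1 dKO it was lost without WT replicate 2 (limma adjusted p = 0.0566) or TNFR1 dKO replicate 3 (0.0563). In TRAIL dKO it held in only 3 of 11 fits that each left out an array, those without WT replicate 1, TNFR1 dKO replicate 1 or TNFR1 dKO replicate 2. It was lost without any 1 of the other arrays, with a limma adjusted p of 0.0533 to 0.212.

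Ccne2 (probe set 10503264), the second E-type cyclin, measured 5.30, 5.48 and 4.97 in WT and 5.77, 5.98 and 5.77 in Nemo KO. It measured 5.84 and 6.04 in TRAIL dKO and 5.68, 6.42 and 5.77 in TNFR1 dKO. The WT arrays were again the lowest of the 11, but no comparison passed the test. The differences from WT were 0.59 ± 0.19 in Nemo KO (SE, 95% interval 0.15 to 1.02, limma adjusted p = 0.097), 0.69 ± 0.22 in TRAIL dKO (0.20 to 1.18, adjusted p = 0.0974) and 0.70 ± 0.19 in TNFR1 dKO (0.27 to 1.14, adjusted p = 0.0535). Without TNFR1 dKO replicate 2, the highest array, Ccne2 was called in Nemo KO (limma adjusted p = 0.0298) and in TRAIL dKO (0.0286), and without TNFR1 dKO replicate 1 it was called in TNFR1 dKO (0.0378). Leaving out WT replicate 3, the lowest array and the one with the acinar markers, made the differences smaller. They were then 0.45 in Nemo KO (limma adjusted p = 0.23), 0.55 in TRAIL dKO (0.202) and 0.56 in TNFR1 dKO (0.141).

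The mitotic cyclins had the largest differences of the set. Ccna2 (probe set 10497831), which acts from DNA synthesis into early mitosis, measured 5.60, 5.36 and 6.52 in WT and 9.16, 8.85 and 9.13 in Nemo KO. It measured 9.11 and 8.69 in TRAIL dKO and 8.16, 9.46 and 9.08 in TNFR1 dKO. WT replicate 3 was the highest WT array and still lay below every Nemo-deficient array, the lowest of which was TNFR1 dKO replicate 1. Ccna2 rose 9.29-fold in Nemo KO (3.22 ± 0.36 log2 units, SE, 95% interval 2.41 to 4.02, limma adjusted p = 0.000909). The rise was 8.40-fold in TRAIL dKO (3.07 ± 0.40, limma adjusted p = 0.00249) and 8.39-fold in TNFR1 dKO (3.07 ± 0.36, limma adjusted p = 0.00117).

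Ccnb2 (probe set 10594774), a partner of Cdk1 in mitosis whose promoter held the evenly spaced CCAAT boxes above, measured 6.10, 6.39 and 6.98 in WT and 9.66, 9.58 and 9.70 in Nemo KO. It measured 9.82 and 9.61 in TRAIL dKO and 9.28, 10.48 and 10.02 in TNFR1 dKO. The gap between the highest WT array and the lowest Nemo-deficient array was wider than the spread within any genotype. Ccnb2 rose 8.90-fold in Nemo KO (3.15 ± 0.29 log2 units, SE, 95% interval 2.50 to 3.80, limma adjusted p = 0.000449), 9.37-fold in TRAIL dKO (3.23 ± 0.32, adjusted p = 0.000901) and 10.8-fold in TNFR1 dKO (3.44 ± 0.29, adjusted p = 0.000352).

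Cdk1 (probe set 10369815), the kinase that drives entry into mitosis, measured 6.14, 5.92 and 6.97 in WT and 8.95, 8.66 and 8.77 in Nemo KO. Both TRAIL dKO arrays read 8.82, and the TNFR1 dKO arrays read 8.47, 9.20 and 8.99. No Nemo-deficient array overlapped WT, and WT replicate 3 was again the highest of the controls. Cdk1 rose 5.46-fold in Nemo KO (2.45 ± 0.26 log2 units, SE, 95% interval 1.86 to 3.03, limma adjusted p = 0.000815), 5.56-fold in TRAIL dKO (2.47 ± 0.29, adjusted p = 0.00162) and 5.82-fold in TNFR1 dKO (2.54 ± 0.26, adjusted p = 0.000747).

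The high value of WT replicate 3 lowers these differences. Its values lay above the WT mean by 0.69 log2 units for Ccna2, 0.49 for Ccnb2 and 0.63 for Cdk1, and it is the array with the acinar markers. A link between these readings was not tested. Without it the difference of Ccna2 from WT was 3.56 log2 units in Nemo KO and 3.42 in both TRAIL dKO and TNFR1 dKO. That of Ccnb2 was then 3.40, 3.47 and 3.68, and that of Cdk1 was 2.76, 2.79 and 2.85, in the same order of genotypes. The 5 genes Ccnd1, Ccna2, Ccnb2, Cdk1 and Cdkn2c were called in all 3 comparisons with WT in every fit that left out 1 array.

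**Figure D2:**
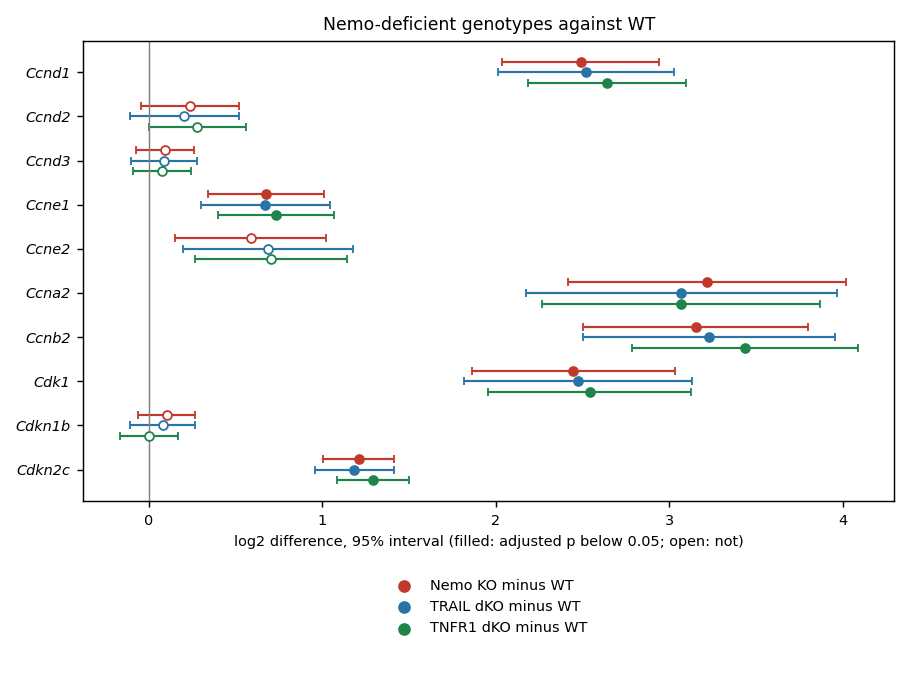
Log2 difference from WT (horizontal axis, in log2 units) of each gene in the 3 Nemo-deficient genotypes, with 95% intervals of the limma fit; filled points have an adjusted p below 0.05. The points of Ccna2 and Ccnb2 lie above 3, those of Ccnd1 and Cdk1 between 2.45 and 2.64, and those of Ccnd2, Ccnd3 and Cdkn1b between 0 and 0.28.

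The inhibitors did not move together. Cdkn2c (probe set 10515090), the INK4 inhibitor of Cdk4 and Cdk6, measured 6.64, 6.79 and 6.61 in WT and 8.00, 7.85 and 7.83 in Nemo KO. It measured 7.86 and 7.88 in TRAIL dKO and 7.80, 8.08 and 8.03 in TNFR1 dKO. All Nemo-deficient arrays lay more than 1 log2 unit above the highest WT array, and SDs within genotypes were between 0.01 and 0.15. Cdkn2c rose 2.32-fold in Nemo KO (1.21 ± 0.09 log2 units, SE, 95% interval 1.01 to 1.42, limma adjusted p = 0.000298), 2.27-fold in TRAIL dKO (1.19 ± 0.10, adjusted p = 0.000581) and 2.45-fold in TNFR1 dKO (1.29 ± 0.09, adjusted p = 0.000141).

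Cdkn1b (probe set 10542310), which encodes p27, measured 8.89, 8.89 and 8.79 in WT and 8.96, 9.04 and 8.88 in Nemo KO. It measured 8.90 and 8.97 in TRAIL dKO and 8.78, 8.97 and 8.82 in TNFR1 dKO. The 11 values spanned 8.78 to 9.04, Nemo KO and TNFR1 dKO overlapped WT, and the TRAIL dKO arrays lay just above it. The difference from WT was 0.10 ± 0.07 log2 units in Nemo KO (SE, 95% interval -0.06 to 0.27, limma adjusted p = 0.42), 0.08 ± 0.08 in TRAIL dKO (-0.11 to 0.27, adjusted p = 0.641) and 0.00 ± 0.07 in TNFR1 dKO (-0.17 to 0.17, adjusted p = 0.997). A second probe set of Cdkn1b, 10542317, read 5.63 to 5.95 over the arrays and was not used. Activity of p27 is also set by its stability and place in the cell, which RNA does not show.

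In all, 7 of the 10 genes had all 8 Nemo-deficient arrays above all 3 WT arrays, where 7.79% of all probe sets did: the 6 called genes and Ccne2. At an unadjusted p below 0.05, 7 of the 10 passed in each comparison with WT. Of all 35556 probe sets, 8825 passed at that threshold in Nemo KO, 7526 in TRAIL dKO and 8162 in TNFR1 dKO. Here too the genes were chosen with earlier results known, so the excess is not an independent result.

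Adding the loss of TRAIL or of TNFR1 to that of Nemo was compared next, which asks whether these death pathway genes alter the response of the cycle genes. None of the 10 genes was called by limma between TRAIL dKO and Nemo KO, TNFR1 dKO and Nemo KO, or both double knockouts. In each of these, 0 of 10 had an unadjusted p below 0.05. Of all 35556 probe sets, 1436, 2440 and 1788 passed at that threshold in the same order, so that 0 of 10 is near the share of all. Few probe sets were called at all: 0.00562% in the first comparison, 0.0337% in the second and 0.0478% in the third, in either direction. The median difference of the 10 genes was -0.00493, 0.07 and 0.06 log2 units, and that of all probe sets was 0.00266, 0.01 and 0.00705. Nemo KO arrays serve in both of the first comparisons, and each double knockout appears in the third as well.

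The intervals give the differences that the values are compatible with, and they differ between genes. For Ccna2 the difference of TRAIL dKO from Nemo KO was -0.15 log2 units with a 95% interval of -1.04 to 0.75, and that of TNFR1 dKO was -0.15 with an interval of -0.95 to 0.65. For Ccnb2 these differences were 0.08 (-0.65 to 0.80) and 0.28 (-0.37 to 0.93), and for Cdk1 they were 0.03 (-0.63 to 0.68) and 0.09 (-0.49 to 0.68). With 2 or 3 arrays per genotype, changes of either sign within these bounds remain compatible with the values of the mitotic genes. Cdkn2c was held more tightly, at -0.03 (-0.26 to 0.20) in TRAIL dKO and 0.08 (-0.12 to 0.29) in TNFR1 dKO. Ccnd1 differed from Nemo KO by 0.03 (-0.48 to 0.53) in TRAIL dKO and by 0.15 (-0.30 to 0.60) in TNFR1 dKO. The E-type cyclins differed from Nemo KO by -0.00286 (Ccne1, -0.38 to 0.37) and 0.10 (Ccne2, -0.39 to 0.59) in TRAIL dKO and by 0.06 (-0.28 to 0.39) and 0.12 (-0.32 to 0.55) in TNFR1 dKO. For Ccnd2, Ccnd3 and Cdkn1b, the differences of both double knockouts from Nemo KO lay between -0.10 and 0.04. Between both double knockouts, Ccnb2 differed most, by 0.21 log2 units (-0.52 to 0.93), TNFR1 dKO being the higher. For each of the 6 called genes, the lower bound of the difference from WT lay above 0 in all 3 genotypes, and no interval among the Nemo-deficient genotypes excluded 0.

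**Figure D3:**
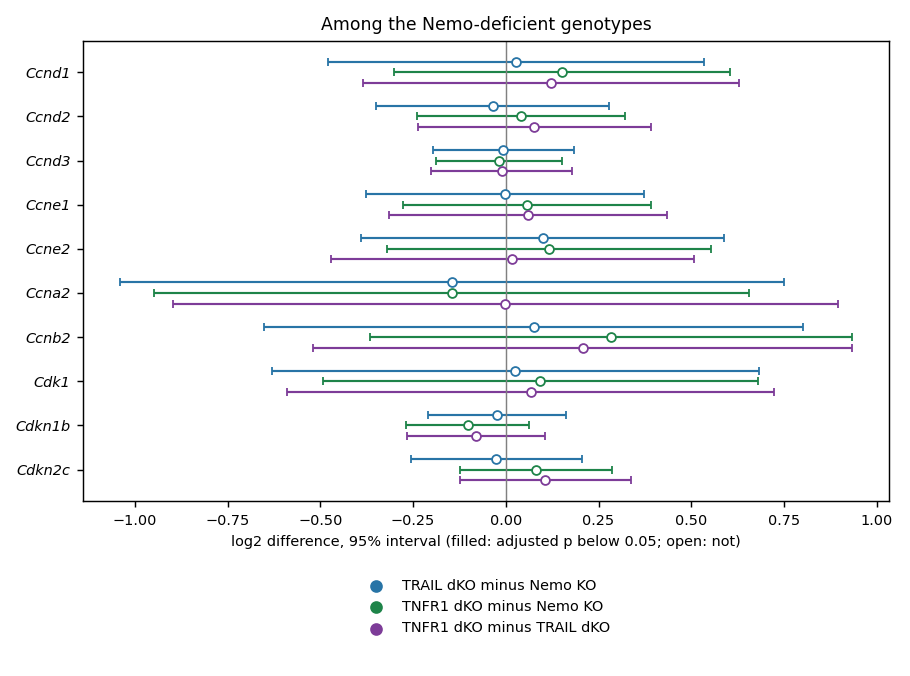
Log2 difference (horizontal axis, in log2 units) of each gene between the Nemo-deficient genotypes, with 95% intervals of the limma fit; all points are open because none has an adjusted p below 0.05. Every interval spans 0, and the widest, those of Ccna2, run from -1.04 to 0.75 and from -0.95 to 0.65 against Nemo KO.

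The spread within genotypes differed from gene to gene and between genotypes. The SD of Ccna2 was 0.61 in WT, 0.17 in Nemo KO, 0.30 in TRAIL dKO and 0.67 in TNFR1 dKO. In the same order, that of Ccnb2 was 0.45, 0.06, 0.15 and 0.60, and that of Cdk1 was 0.55, 0.14, 0.00203 and 0.38. Those mitotic genes had the largest SDs of the 10 in WT, while in Nemo KO the largest was that of Ccnd1, at 0.39. In TNFR1 dKO, Ccne2 (0.40) lay between Ccnb2 and Cdk1. In TNFR1 dKO, replicate 1 was the lowest array for 9 of the 10 genes and replicate 2 the highest for 8 of them. Replicate 1 lay below its genotype mean by 0.74 log2 units for Ccna2, by 0.65 for Ccnb2 and by 0.42 for Cdk1, and replicate 2 lay above it by 0.56, 0.55 and 0.32. Without replicate 1 the difference from WT was 3.44 for Ccna2, 3.76 for Ccnb2 and 2.75 for Cdk1, and without replicate 2 it was 2.79, 3.16 and 2.38. Over the same arrays, replicates 1, 2 and 3, the mean of the macrophage markers was 8.57, 8.98 and 9.06 and that of the stellate cell markers 9.12, 9.50 and 9.63. The lowest array was thus the same one for the cycle genes and for both marker lists, and the highest was not. Replicate 1 was also the lowest for the B and plasma cell, cholangiocyte and endothelial lists. It was not the lowest for the T and NK cell or erythroid lists, and it was the highest for the hepatocyte and acinar lists. The part of these cells in the spread was not tested.

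**Figure D4:**
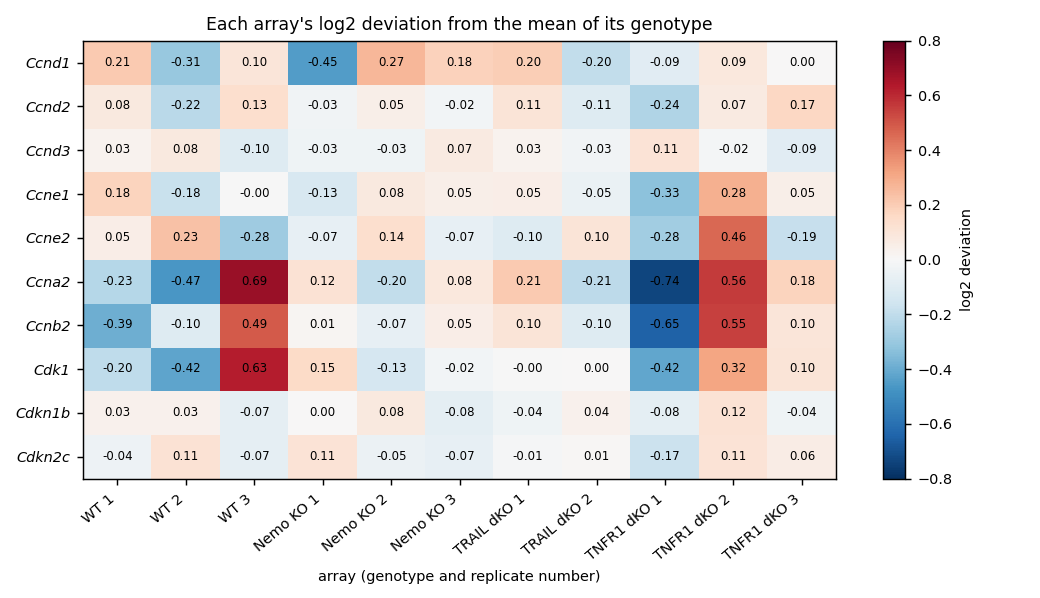
Deviation in log2 units (colour) of each array (columns, by genotype and replicate) from the mean of its genotype for the 10 genes (rows). WT replicate 3 is above its mean by 0.69 for Ccna2 and 0.63 for Cdk1, and TNFR1 dKO replicate 1 is below its mean by 0.74 and 0.42.

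Markers of the cells that a liver sample holds were read beside these results, and their part in the rise of the cycle genes was not tested. Hepatocyte markers, with a mean level of 13.05 to 13.17 in every array, had 0 of 8 called in each comparison with WT. Macrophage and monocyte markers rose for 9 of 9 in all 3 genotypes, with a mean level of 7.10 to 7.17 in WT, 8.76 to 9.02 in Nemo KO, 8.98 to 9.01 in TRAIL dKO and 8.57 to 9.06 in TNFR1 dKO. Stellate cell markers rose for 8, 7 and 8 of 9, from 8.00 to 8.51 in WT to 9.30 to 9.51, 9.14 to 9.41 and 9.12 to 9.63. T and NK cell markers rose for 1, 1 and 3 of 10, with a mean level of 5.36 to 5.44 in WT and of 5.45 to 5.85 in the Nemo-deficient arrays, and 6 to 8 of the 10 lay below the array's median. B and plasma cell markers had 0 of 7 called, with 4 or 5 of the 7 below the array's median. Of the cholangiocyte markers 0, 1 and 0 of 5 rose, and of the endothelial markers 0, 2 and 1 of 7 rose and 0, 1 and 0 fell, the faller in TRAIL dKO being Kdr (-0.41 log2 units). Erythroid markers fell for 2, 0 and 1 of 4. Over all probe sets, 3.21% were called lower in Nemo KO, 2.64% in TRAIL dKO and 3.35% in TNFR1 dKO. In the same order, 6.08%, 4.91% and 5.83% were called higher. The array scale has no true 0, so that a marker cannot be read as absent.

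The other parts of the cycle machinery moved in some groups and hardly in others. Of 16 other cyclins measured, 1 rose in each comparison with WT and none fell, with a median difference of 0.00409 log2 units in Nemo KO, and Ccnb1 had no probe set of its own. Over all probe sets, 6.08% were called higher in Nemo KO, 4.91% in TRAIL dKO and 5.83% in TNFR1 dKO, so that 1 of 16 is near the share of all. The riser was Ccng1, a cyclin G known as a target of p53, which rose by 0.70 ± 0.11 log2 units in Nemo KO (SE, limma adjusted p = 0.0036), 0.85 in TRAIL dKO and 0.77 in TNFR1 dKO. Of 9 other CDKs and CKS subunits, 1 rose in each, with a median of 0.13 in Nemo KO. That was Cdk6, a partner of the D-type cyclins, which rose by 0.53 ± 0.10 in Nemo KO (limma adjusted p = 0.0129), 0.45 in TRAIL dKO and 0.54 in TNFR1 dKO. Its call in Nemo KO was lost without Nemo KO replicate 2 (limma adjusted p = 0.0532) or replicate 3 (0.0526), that in TNFR1 dKO without TNFR1 dKO replicate 2 (0.0515), and that in TRAIL dKO without any 1 array but WT replicate 1 (0.0526 to 0.218). Of 5 other CDK inhibitors, 1 rose in each, with a median of -0.02 in Nemo KO, and Cdkn1a had no probe set of its own. The riser, Cdkn3, is a phosphatase that acts on CDKs rather than an INK4 or Cip/Kip inhibitor, and it rose by 1.76 ± 0.27 in Nemo KO (limma adjusted p = 0.00362), 1.77 in TRAIL dKO and 2.31 in TNFR1 dKO. Its call in TRAIL dKO was lost without TRAIL dKO replicate 1 (limma adjusted p = 0.0651).

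Of these lists, the enzymes that set the phosphorylation of CDKs had the largest share of risers in Nemo KO. Of the 5, 4 rose in Nemo KO, 3 in TRAIL dKO and 5 in TNFR1 dKO, with a median of 0.45 log2 units in Nemo KO. The share of all probe sets called higher was 6.08%, 4.91% and 5.83% in that order. Wee1, a kinase that inhibits Cdk1, rose by 1.38 ± 0.32 in Nemo KO (SE, limma adjusted p = 0.0263) and 1.31 in TNFR1 dKO, and differed by 1.02 in TRAIL dKO (adjusted p = 0.132). Cdc25c, a phosphatase that activates Cdk1, rose by 0.83 ± 0.20 in Nemo KO (limma adjusted p = 0.0302), 0.91 in TRAIL dKO and 0.87 in TNFR1 dKO. A brake and an activator of Cdk1 thus rose in the same livers. Both calls were fragile: in Nemo KO that of Wee1 was lost without WT replicate 2 or 3 or any 1 of the Nemo KO arrays (limma adjusted p = 0.0543 to 0.0832), and that of Cdc25c was lost without any 1 of the WT or Nemo KO arrays (0.0547 to 0.0989). In TNFR1 dKO that of Wee1 held only without WT replicate 1, Nemo KO replicate 1 or 3, or TNFR1 dKO replicate 1, and was otherwise lost at limma adjusted p of 0.0502 to 0.111. There Cdc25c lost its call without any 1 of the WT arrays or TNFR1 dKO replicate 2 or 3 (limma adjusted p = 0.0543 to 0.0865). In TRAIL dKO the call of Cdc25c held only without TNFR1 dKO replicate 1 or 2 and was otherwise lost (limma adjusted p = 0.0522 to 0.192), while Wee1 was called there without WT replicate 1 (0.0219).

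Among 17 E2F and RB family factors, 4 rose and 1 fell in Nemo KO, with a median of 0.15 log2 units. In TRAIL dKO 3 rose and 1 fell, and in TNFR1 dKO 4 rose and 2 fell. Of all probe sets, 6.08%, 4.91% and 5.83% were called higher in Nemo KO, TRAIL dKO and TNFR1 dKO. Those called lower were 3.21%, 2.64% and 3.35%, so that 1 faller of 17 is near the share of all. Foxm1, a transcription factor of genes for mitosis, rose by 1.52 ± 0.21 in Nemo KO (SE, limma adjusted p = 0.00247), 1.48 in TRAIL dKO and 1.58 in TNFR1 dKO. The pocket proteins Rbl1, Rbl2 and Rb1 differed in their calls: Rbl1 (p107) rose by 1.13 ± 0.17 in Nemo KO (limma adjusted p = 0.00329), 1.28 in TRAIL dKO and 1.38 in TNFR1 dKO, and Rbl2 (p130), the form found in resting cells, fell by 0.59 ± 0.11 in Nemo KO (adjusted p = 0.00833), 0.53 in TRAIL dKO and 0.50 in TNFR1 dKO. Rb1, the retinoblastoma protein, differed from WT by 0.11 in Nemo KO (adjusted p = 0.41), 0.04 in TRAIL dKO (0.823) and -0.03 in TNFR1 dKO (0.834). The second faller in TNFR1 dKO was E2f6 (-0.53, adjusted p = 0.0108). Rbl2, Rb1 and E2f6 were singled out after their values were seen. The call of Rbl2 was lost in TRAIL dKO without WT replicate 1 or 2 or either TRAIL dKO array (limma adjusted p = 0.0517 to 0.197) and in TNFR1 dKO without WT replicate 2 or TNFR1 dKO replicate 2 or 3 (0.0578 to 0.0712). Of 8 parts of the ubiquitin ligases that remove cyclins and their inhibitors, 3 rose in each comparison with WT and none fell, with a median of 0.13 in Nemo KO. Cdc20, which activates the anaphase-promoting complex, rose by 2.22 ± 0.33 (limma adjusted p = 0.00335), 2.19 and 2.15 in Nemo KO, TRAIL dKO and TNFR1 dKO, and Ube2c, its ubiquitin-conjugating enzyme, rose by 1.62 ± 0.27 (adjusted p = 0.00583), 1.55 and 1.61. Without TRAIL dKO replicate 1, the calls of Foxm1 (limma adjusted p = 0.0647), Cdc20 (0.0829) and Ube2c (0.127) in TRAIL dKO were lost. No gene of these lists was called by limma among the Nemo-deficient genotypes, which is near the share of all probe sets. That share was 0.00562% between TRAIL dKO and Nemo KO, 0.0337% between TNFR1 dKO and Nemo KO and 0.0478% between both double knockouts.

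**Figure D5:**
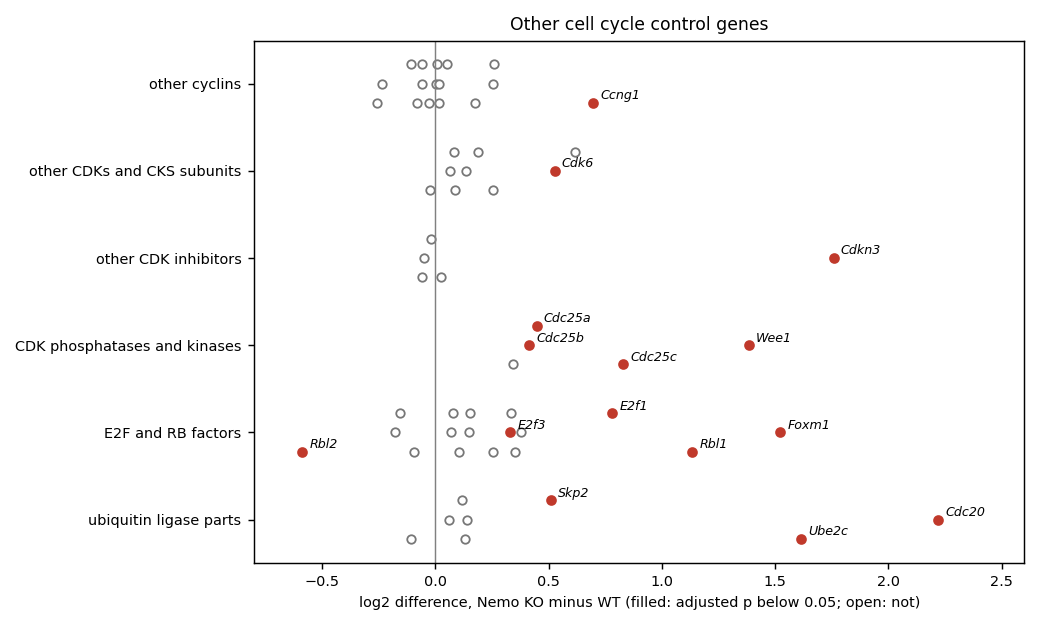
Log2 difference between Nemo KO and WT (horizontal axis, in log2 units) of the other cell cycle control genes, 1 point for each gene and 1 row for each list; filled points have an adjusted p below 0.05. The points reach from -0.59 (Rbl2) to 2.22 (Cdc20), and most of the open points of the other cyclins lie near 0.

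The genes nearest to 3 of the members in pattern were found among 19937 other genes by the root mean square difference over the 11 arrays, each gene centred on its WT mean. The arrays share 1 normalization, and the distance is mostly set by the size of the difference from WT. Nearest to Cdk1 were Esco2, at 0.15 log2 units, Ckap2, at 0.19, and Mki67, which encodes the proliferation antigen Ki-67, at 0.25. Mki67 differed from WT by 2.70 log2 units in Nemo KO, 2.55 in TRAIL dKO and 2.74 in TNFR1 dKO. Nearest to Ccnd1 were Esco2 (0.284), 2010003K11Rik (0.285) and Ntrk2 (0.317), all farther away than the neighbours of Cdk1. Nearest to Cdkn2c were Rad18 (0.0955), Gstm3 (0.108) and Ska3 (0.126).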

How the data were processed

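Whole-liver RNA of 4 genotypes was read on 11 arrays. The authors deposited log2 values of 35556 probe sets, made with RMA per the submitters' processing notes. RMA normalizes over all arrays together and shrinks large differences at the low end of the scale. No value was changed. With R 4.3.3 and limma 3.58.1, 1 mean per genotype was fitted to all arrays and probe sets (residual degrees of freedom 7, prior 2.51), with two-sided p-values adjusted by Benjamini-Hochberg over all probe sets in each of 6 comparisons. A probe set names a gene only where it has exactly 1 symbol, as 21789 do; 1621 have several and 12146 have none. All 10 genes are named, and from each other list the called genes with the 2 largest differences in Nemo KO against WT. The genes and lists were chosen with earlier results of these data known. The fit was tested on simulated data. Alternatives were a variance trend with robust moderation, quantile normalization, median centring, a filter at the 25th percentile of the mean, a fit of the compared genotypes alone, a replicate block, array weights, the mean of all probe sets of a gene and each array left out. Those for the named genes of the other lists were chosen after seeing the data.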

Additional observations from a re-analysis of the deposited data

How the results depend on the processing

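Between 5 and 7 of the 10 genes were called in each comparison with WT, and 0 among the Nemo-deficient genotypes, whichever array was left out. The number of arrays limits the precision, and leaving out a TRAIL dKO array leaves 1, whose spread is assumed to be that of the other groups. Ccnd1, Ccna2, Ccnb2, Cdk1 and Cdkn2c were called against WT in all 8 other settings. Ccne1 lost its call with only the groups compared in TRAIL dKO (limma adjusted p = 0.0602) and TNFR1 dKO (0.07). Ccne2 gained one in TNFR1 dKO with the filter at the 25th percentile (limma adjusted p = 0.0396). The replicate numbers did not pair the arrays: deviations from the genotype mean correlated at -0.12 to 0.04 over 15 same-number pairs, 0 of them above 0.1. With the replicate number as a block, Ccne1 lost its call in TRAIL dKO (limma adjusted p = 0.0793), Ccne2 was called in Nemo KO (0.0324) and TNFR1 dKO (0.0168), and no count of called genes moved by more than 1.5 times. Of the named genes of the other lists, the block ended the calls of Cdc25c in Nemo KO (0.0569) and TRAIL dKO (0.0662), Wee1 in TNFR1 dKO (0.0592) and Cdk6 in TRAIL dKO (0.109). A fit of the compared genotypes alone ended those of Wee1 in Nemo KO (limma adjusted p = 0.0564), of Cdk6 (0.18), Rbl2 (0.114) and Ube2c (0.0972) in TRAIL dKO, and of Cdk6 (0.0598), Wee1 (0.116), Cdc25c (0.0954) and Rbl2 (0.0513) in TNFR1 dKO. Median centring ended that of Cdk6 in TRAIL dKO (0.0684).

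Signs turned only for differences that were not called. Quantile normalization gave -0.022 for Cdkn1b in TNFR1 dKO against WT, 0.017 for Ccnd3 and 0.00319 for Ccne1 in TRAIL dKO against Nemo KO, and 0.00278 for Ccna2 between both double knockouts, where differences are TNFR1 dKO minus TRAIL dKO. Median centring gave -0.025 for Cdkn1b in TNFR1 dKO against WT. Array weights gave -0.00682 for Ccnd1 in TRAIL dKO against Nemo KO and 0.12 for Ccna2 between both double knockouts. The replicate block gave 0.011 for Ccnd2, 0.013 for Ccne1 and 0.013 for Ccna2 in TRAIL dKO against Nemo KO, and 0.010 for Ccnd3 and -0.051 for Cdk1 between both double knockouts. The mean of all probe sets gave 0.046 for Cdkn1b there. The cause was not tested.

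With an array left out, these uncalled differences ranged as follows. Cdkn1b ranged from -0.058 to 0.041 in TNFR1 dKO against WT. In TRAIL dKO against Nemo KO the ranges were -0.20 to 0.23 for Ccnd1, -0.14 to 0.070 for Ccnd2, -0.035 to 0.028 for Ccnd3, -0.066 to 0.050 for Ccne1, -0.00187 to 0.20 for Ccne2, -0.36 to 0.067 for Ccna2, -0.029 to 0.18 for Ccnb2, -0.041 to 0.10 for Cdk1, -0.063 to 0.016 for Cdkn1b and -0.058 to 0.030 for Cdkn2c. In TNFR1 dKO against Nemo KO they were -0.074 to 0.28 for Ccnd1, -0.043 to 0.16 for Ccnd2, -0.073 to 0.029 for Ccnd3, -0.084 to 0.22 for Ccne1, -0.11 to 0.25 for Ccne2, -0.43 to 0.22 for Ccna2, 0.00783 to 0.61 for Ccnb2, -0.065 to 0.30 for Cdk1, -0.16 to -0.062 for Cdkn1b and 0.025 to 0.17 for Cdkn2c. Between both double knockouts they were -0.075 to 0.32 for Ccnd1, -0.029 to 0.20 for Ccnd2, -0.066 to 0.036 for Ccnd3, -0.081 to 0.23 for Ccne1, -0.21 to 0.16 for Ccne2, -0.28 to 0.37 for Ccna2, -0.068 to 0.53 for Ccnb2, -0.091 to 0.28 for Cdk1, -0.14 to -0.039 for Cdkn1b and 0.051 to 0.19 for Cdkn2c.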
